A study of Mus musculus with 15 samples.

Results

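Polyamine metabolism was followed through 10 genes in the tibialis anterior, a fast muscle at the front of the lower hind limb, of female mice. The genes were chosen by name, with earlier results of these data known. Odc1, Amd1, Srm and Sms make polyamines, and Sat1, Smox and Paox break them down. Oaz1, Oaz2 and Azin1 control the first enzyme. All 10 were among the 47643 symbols of the deposited table, and all 10 were among the 11923 genes kept, those with at least 1 TPM (a transcript level corrected for transcript length and scaled to a fixed library total) in at least 3 of the 15 libraries.

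All mice were female C57BL/6J (written C57BL6/J in the strain label), with an age of 7 weeks in the labels, and muscle was taken 49 days after implantation of a melanoma that induces cachexia, the wasting of muscle and fat, or after a mock injection. The 4 groups were control (mock injection, no drug, 4 libraries), lisinopril (mock injection and the ACE inhibitor lisinopril, 3 libraries), melanoma (tumour, no drug, 4 libraries) and melanoma plus lisinopril (tumour and drug, 4 libraries). The series text calls the tumour a xenograft. The sources used here do not give the drug's dose and duration, the melanoma line, or the point at which the 7 weeks were counted. The extraction label also names 3 weeks after injection of LLC cells, a different tumour, so the melanoma and the 49 days rest on the series text and the group labels. The labels call the libraries biological replicates without naming an animal for each, so p-values measure the spread between these libraries.

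Putrescine, spermidine and spermine are small positively charged molecules that bind nucleic acids and are needed for growth and translation. Cells make putrescine from ornithine, extend it with aminopropyl groups drawn from S-adenosylmethionine, and turn it back by acetylation and oxidation. In skeletal muscle polyamines are known as supporters of fibre size, and spermine oxidase is known as a gene that falls in several forms of atrophy.

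The fibre genes Ckm, Acta1, Actn3, Tnnt3, Myh4, Myh1, Myh2 and Mylpf together held between 62500 and 127480 TPM in each library, as the tissue label implies. Sequencing depth is unknown, because TPM keep no totals. Transcripts of the mitochondrial genome took between 28.5% (melanoma plus lisinopril 4) and 52.8% (control 3) of TPM. Control 2 and melanoma 2 stood apart, each with a mean correlation to its own group of 0.937 or 0.938, against at least 0.965 in the other libraries. Control 2 also held 23878 TPM of haemoglobin against at most 4197 TPM elsewhere. In bulk tissue, fewer cells of a type and less RNA per cell cannot be told apart.

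The antizymes were the most abundant transcripts of the pathway in resting muscle. In control libraries Oaz1 stood at 262 ± 38.0 TPM (SD, n = 4) and Oaz2 at 141 ± 20.9 TPM, and neither range overlapped that of the next gene. Amd1 (63.9 ± 15.01), Odc1 (49.3 ± 15.6), Sat1 (34.7 ± 17.2), Sms (33.0 ± 8.34), Smox (19.3 ± 7.52), Azin1 (16.7 ± 4.63), Srm (10.48 ± 5.39) and Paox (5.75 ± 2.3 TPM) followed, and from Amd1 downwards each gene's range of control values overlapped that of the next. In both tumour groups Sat1 came next after Oaz2 and ahead of Amd1, although its range overlapped both.

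**Figure D1:**
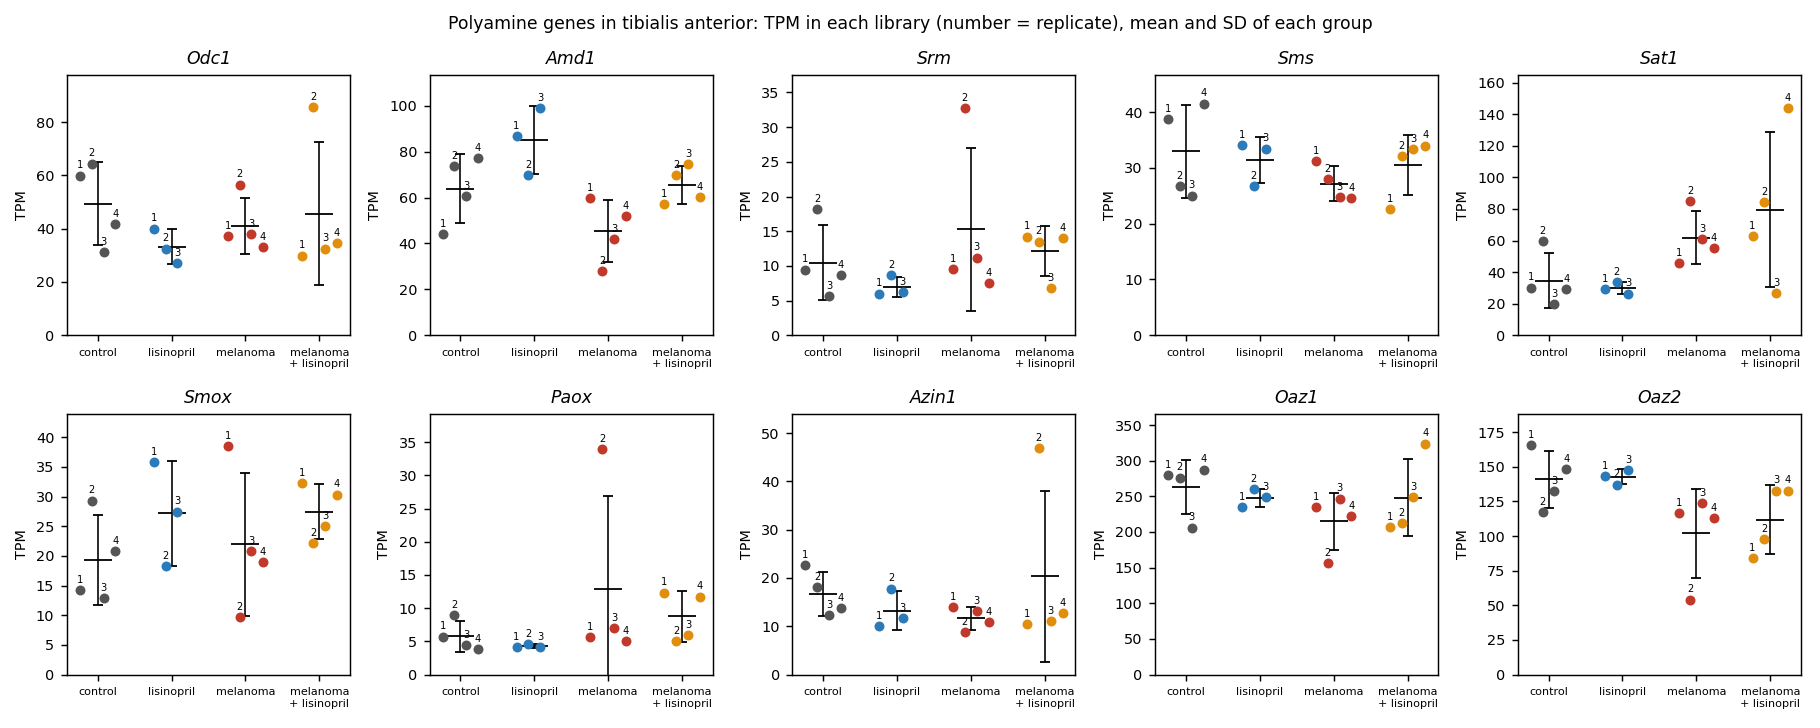
TPM of the 10 polyamine genes in each of the 15 libraries, by group, on linear axes that start at 0; points are libraries labelled with their replicate number, horizontal bars are group means and whiskers are SD (the lower whisker of Paox in melanoma runs below 0 and is not drawn there). Sat1 sits higher in most tumour-bearing libraries, while melanoma 2 is the highest library for Srm and Paox and the lowest for Amd1, Smox, Azin1, Oaz1 and Oaz2.

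The average tumour effect, the mean of the tumour effects with and without drug, asks what the tumour changed across both drug arms. It set 8 tumour-bearing against 7 tumour-free libraries in a limma fit of log2(TPM + 1), with p-values adjusted over all kept genes and 0.05 as the threshold. Of the 10 polyamine genes 1 was called, Sat1, which rose, and none fell. Of all genes tested 18.0% were called, 14.5% higher and 3.45% lower, so the share of polyamine genes called did not exceed the background. The split depended on scaling: 80.8% of called genes were higher here, against 46.8% after median-ratio rescaling and 50.0% after quantile normalization, where 10.6% and 9.85% of all genes were called lower. The median log2 fold change of the 10 polyamine genes was -0.01, against 0.17 for all genes, with 5 of the 10 above 0 and 5 below. An unadjusted p below 0.05 was found for 4 of the 10 and for 4526 of all 11923 genes.

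Sat1, on chrX:155213132-155216449 of mm10 (minus strand), encodes spermidine/spermine N1-acetyltransferase, which acetylates spermidine and spermine and is the rate-limiting step of their breakdown and export. It had 30.2, 59.6, 19.8 and 29.0 TPM in control 1 to 4 and 29.3, 33.6 and 26.3 TPM in lisinopril 1 to 3. It had 45.6, 85.0, 61.2 and 55.3 TPM in melanoma 1 to 4, and 62.9, 84.6, 26.9 and 144 TPM in melanoma plus lisinopril 1 to 4. The tumour-bearing libraries were high except melanoma plus lisinopril 3, which lay among the tumour-free ones, and control 2 was the only tumour-free library above 33.6 TPM. Levels averaged 32.6 ± 12.6 TPM without tumour (SD, n = 7) and 70.7 ± 35.2 TPM with it (n = 8). Sat1 rose 2.04-fold on the log2(TPM + 1) scale (log2 fold change 1.03 ± 0.30 SE, adjusted p = 0.0334), with 7 of 8 tumour-bearing libraries over the mean of the tumour-free ones and 5 of 8 over every one of those. Without control 2, 7 of 8 lay above every tumour-free library.

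The rise of Sat1 kept its direction in all 26 alternative fits, between 0.82 and 1.24 on the log2 scale, and passed the threshold in 15 of them, with adjusted p between 0.00410 and 0.0762. It did not pass with no filter on low values (adjusted p = 0.0686). It passed when control 2 and melanoma 2 were both left out (log2 fold change 1.09 ± 0.29, adjusted p = 0.0147) and in TPM recomputed without the mitochondrial genome (0.91 ± 0.28, adjusted p = 0.0397). It lost the call on leaving out any 1 of 10 libraries: control 1 (adjusted p = 0.0562), control 3 (0.0678), control 4 (0.0605), lisinopril 1 (0.0762), lisinopril 2 (0.0602), lisinopril 3 (0.0680), melanoma 2 (0.0558), or melanoma plus lisinopril 1 (0.0517), 2 (0.0523) or 4 (0.0584). Leaving out melanoma plus lisinopril 3 gave the smallest adjusted p of these, 0.00535.

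Leukocyte transcripts moved with the tumour as well, and their part in the rise of Sat1 was not tested. All 7 neutrophil markers rose (none of them at 0 throughout), and their summed level ranged from 10.6 to 98.7 TPM without tumour and from 34.3 to 359 TPM with it. Of the 7 macrophage markers 2 rose, with sums of 54.9 to 386 TPM without tumour and 81.9 to 278 TPM with it. Of all genes tested 14.5% were called higher and 3.45% lower. The library with the most Sat1, melanoma plus lisinopril 4, had the lowest neutrophil sum of the tumour-bearing group (34.3 TPM) and 84.0 TPM of macrophage markers, and also the lowest mitochondrial share of all libraries. It stood apart in slow fibre markers as well, at 393 TPM against 11.96 to 159 TPM in the other libraries. The library with the least Sat1 among tumour-bearing muscles, melanoma plus lisinopril 3, had 138 TPM of neutrophil and 114 TPM of macrophage markers. Melanoma 2, second in Sat1 (85.0 TPM), had the highest neutrophil sum (359 TPM) and 192 TPM of macrophage markers. Control 2 held the most Sat1 without tumour (59.6 TPM). It also had the highest neutrophil sum without tumour (98.7 TPM) and the highest macrophage sum of all libraries (386 TPM). Of the other cell types read, fibroblast markers had 2 of 6 called higher, with 3 of the 6 changes above 0 and 3 below. Among those below was Col3a1 (-1.58 ± 0.67, adjusted p = 0.101). Endothelial markers had 1 of 6 called higher and 1 lower, and B and plasma cell markers 1 of 3 lower. Satellite cell markers had 1 of 4 called higher (Chodl, 0.47 ± 0.15, adjusted p = 0.0466), with 2 changes above 0 and 2 below. Among those below was Vcam1 (-0.63 ± 0.23, adjusted p = 0.0656). None of the 6 slow fibre markers was called, and none of the kept markers of red cells or adipocytes. Melanocyte and melanoma markers summed to at most 1.23 TPM in any library, with Tyr at 0 in all of them.

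The genes whose pattern over the 15 libraries was most like that of Sat1, by the mean absolute difference between log2(TPM + 1) values centred on each gene's mean, were Adamts1 (0.18 log2 units per library) and Ets2 (0.23), out of 7515 genes compared. Sat1 itself deviated from its own mean by 0.66 log2 units on average. Adamts1 encodes a secreted metalloprotease that cleaves proteoglycans, and Ets2 a transcription factor of the ETS family. Like Sat1, Adamts1 was highest in melanoma plus lisinopril 4 (103 TPM) and low in melanoma plus lisinopril 3 (22.4 TPM). Adamts1 was chosen for its likeness to Sat1 over these same libraries, so this match follows from the choice.

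The start of Sat1 is shown because it is the only one of the 10 genes that passed the test. The RefSeq window (GRCm38.p6, chrX:155216400-155216699, minus strand, mostly upstream of the start) is printed 5′ to 3′ with GC boxes in capitals, GGGCGG or CCGCCC on the other strand.
Sat1: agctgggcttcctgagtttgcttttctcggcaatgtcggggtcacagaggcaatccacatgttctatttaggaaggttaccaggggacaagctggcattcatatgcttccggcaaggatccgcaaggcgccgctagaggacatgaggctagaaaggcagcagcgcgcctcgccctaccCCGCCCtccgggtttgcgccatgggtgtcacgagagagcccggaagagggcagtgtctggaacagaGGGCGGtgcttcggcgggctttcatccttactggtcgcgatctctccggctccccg
Windows were found for 8 of the 10 genes, and 7 of these 8 genes held a GC box in at least 1 window. Of all 32851 windows, counted singly and not by gene, 35.7% held one. The letters of the E-box bound by MYC and MAX, CACGTG, stood in 1 of the 8 genes, Sms, and in 7.15% of all windows. A match of letters is a description of the window only.

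Spermine and acetylated polyamines are broken down by oxidases. Smox (chr2:131491496-131525922) encodes spermine oxidase, which turns spermine straight into spermidine. It had 14.2, 29.3, 12.9 and 20.8 TPM in control 1 to 4, 35.8, 18.2 and 27.5 TPM in lisinopril 1 to 3, 38.5, 9.64, 20.7 and 19.0 TPM in melanoma 1 to 4, and 32.2, 22.2, 25.0 and 30.3 TPM in melanoma plus lisinopril 1 to 4. All groups overlapped, and the average tumour effect was 0.07 ± 0.25 (adjusted p = 0.852), with a 95% interval from -0.47 to 0.61. The direction of this small difference turned in 6 of the 26 alternatives, so no fall of Smox was seen at this precision, and the interval still allows one.

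Paox (chr7:140115799-140137224) encodes the peroxisomal oxidase that acts on the acetylated products of SAT1. It had 5.70, 9.005, 4.41 and 3.88 TPM in control 1 to 4 and 4.14, 4.63 and 4.14 TPM in lisinopril 1 to 3. It had 5.66, 33.9, 7.04 and 5.09 TPM in melanoma 1 to 4 and 12.3, 5.02, 5.95 and 11.7 TPM in melanoma plus lisinopril 1 to 4. The level of melanoma 2 was 2.75 times that of the next library, and 3 of 8 tumour-bearing libraries lay above every tumour-free one. The average effect was 0.73 ± 0.34 (adjusted p = 0.125). It passed in 2 of 26 alternatives, at 0.54 ± 0.19 without control 2 and melanoma 2 (adjusted p = 0.0427) and at 0.65 ± 0.19 with sample quality weights (adjusted p = 0.0153), with adjusted p up to 0.220 in the others. In melanoma against control alone the difference was 0.67 ± 0.46, and 0.09 ± 0.29 without melanoma 2.

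**Figure D2:**
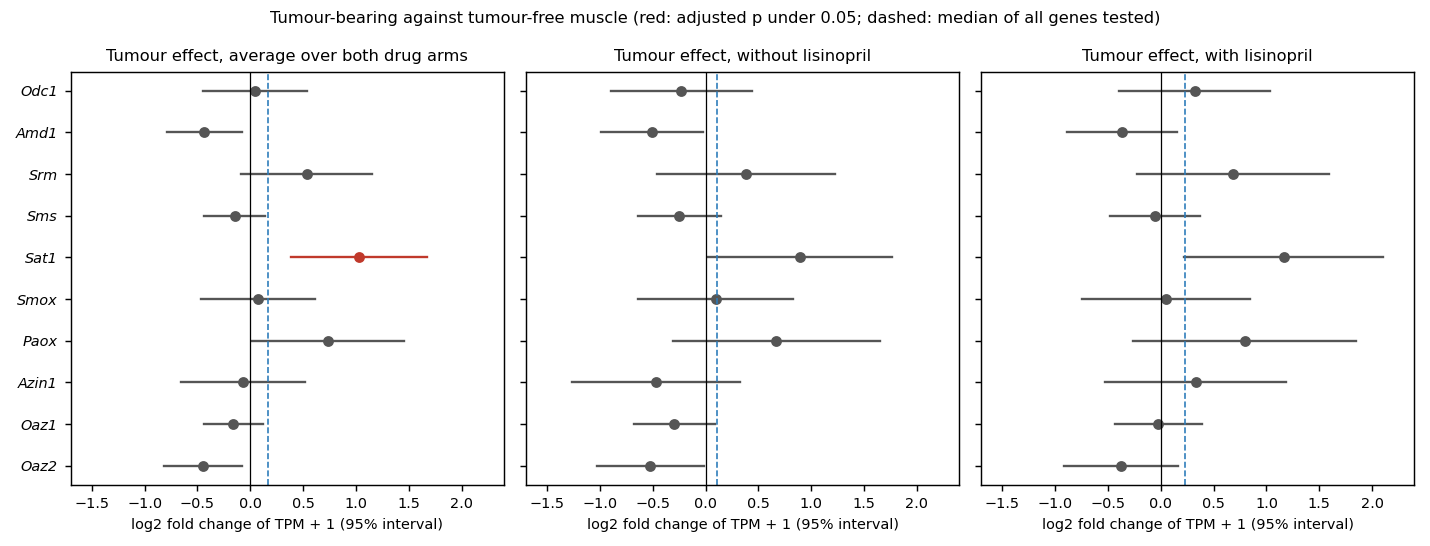
Log2 fold change of TPM + 1 with its 95% interval for the 10 polyamine genes, averaged over both drug arms (left), without lisinopril (middle) and with it (right); red marks an adjusted p under 0.05 and the dashed line the median of all genes tested. Sat1 is the only red point, on the left at 1.03. Also on the left, the intervals of Amd1 and Oaz2 lie below 0 and that of Paox just above 0, although none of them passed after adjustment.

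Odc1 (chr12:17544794-17551505) encodes ornithine decarboxylase, which makes putrescine and is the first committed step. It had 59.9, 64.4, 31.1 and 41.8 TPM in control 1 to 4 and 40.0, 32.5 and 27.1 TPM in lisinopril 1 to 3. It had 37.1, 56.5, 37.9 and 32.9 TPM in melanoma 1 to 4 and 29.9, 85.6, 32.5 and 34.4 TPM in melanoma plus lisinopril 1 to 4. Melanoma plus lisinopril 2 was higher than every other library, and the other tumour-bearing values lay within the tumour-free range. The average effect was 0.05 ± 0.23 (adjusted p = 0.900, 95% interval -0.44 to 0.53), and -0.13 ± 0.17 without that library (adjusted p = 0.614, against 0.605 to 0.988 over all alternatives).

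Amd1 (chr10:40287458-40302186, minus strand) encodes S-adenosylmethionine decarboxylase, which supplies the aminopropyl groups. It had 44.0, 73.8, 60.6 and 77.0 TPM in control 1 to 4, 86.7, 69.6 and 98.8 TPM in lisinopril 1 to 3, 59.8, 28.1, 41.9 and 52.0 TPM in melanoma 1 to 4, and 57.2, 69.8, 74.7 and 60.2 TPM in melanoma plus lisinopril 1 to 4. Melanoma held the lowest values and lisinopril alone the highest, with overlap between control and every other group. The average tumour effect was -0.43 ± 0.17, which missed the threshold (adjusted p = 0.0745), and 7 of the 8 libraries with tumour lay under the mean of those without. It passed in 5 of 26 alternatives, where adjusted p ranged from 0.0223 to 0.157 over all: without the mitochondrial genome (-0.57, adjusted p = 0.0441), after rescaling by median ratios (-0.64, 0.0369) or quantiles (-0.63, 0.0465), when libraries were weighted by quality (-0.44, 0.0223), and in median-ratio values that left out control 2 and melanoma 2 (-0.50, 0.0412). These 3 rescalings moved the median of all genes from 0.17 to 0.06, -0.0045 and 0.00073, so Amd1 was lower relative to other genes by about as much in each.

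Amd1 has a near-identical copy in the mouse genome, Amd2 (chr10:35708675-35711892, minus strand), which lay between 2.73 and 10.7 TPM. How the authors assigned reads shared by copies is not stated in those sources. The GENCODE M21 transcripts of 3204 and 3218 bases were 99.1% identical over the aligned length, 72.8% of windows of 100 bases were the same in both, and the 1005 coding bases differed at 1 place. That place is printed, with the base that differs in capitals, because it shows how little separates the copies.
Amd1: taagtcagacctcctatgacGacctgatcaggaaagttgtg
Amd2: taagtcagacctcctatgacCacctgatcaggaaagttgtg
Amd2 gave an average effect of -0.33 ± 0.16 (adjusted p = 0.135), and all 8 libraries with tumour lay under the mean of those without. The values of the copies are uncertain to the extent that reads were shared between them.

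The aminopropyl transferases were expressed at lower levels. Srm (chr4:148591503-148594993), spermidine synthase, lay between 5.64 and 18.2 TPM without tumour, 18.2 TPM being control 2, and had 9.57, 32.7, 11.2 and 7.57 TPM in melanoma 1 to 4 and 14.2, 13.5, 6.80 and 13.98 TPM in melanoma plus lisinopril 1 to 4. Its average effect was 0.53 ± 0.29 (adjusted p = 0.187), and it passed in none of 26 alternatives. In melanoma against control the difference was 0.38 ± 0.39, and -0.04 ± 0.32 without melanoma 2. Over both drug arms, 1 of 8 tumour-bearing libraries lay above every tumour-free library. Without control 2 it was 6 of 8, and without control 2 and melanoma 2 it was 5 of 7. Sms (chrX:157443855-157492287, minus strand), spermine synthase, had the smallest ratio of highest to lowest level, 1.84, with 22.6 to 41.5 TPM over all libraries, and gave -0.15 ± 0.14 (adjusted p = 0.432, 95% interval -0.44 to 0.14). It passed in 2 of 26 alternatives, with sample quality weights (-0.33, adjusted p = 0.0349) and without control 2 and melanoma 2 under median-ratio rescaling (-0.41, adjusted p = 0.0172).

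Antizymes bind ornithine decarboxylase and send it to the proteasome without ubiquitin, and their own synthesis needs a shift of reading frame that polyamines promote. TPM do not measure that shift. Both shift sites are shown because they are the regulatory element that Oaz1 and Oaz2 share; the stop codon that ends the first frame is in capitals, and reading continues after its first base is skipped.
Oaz1: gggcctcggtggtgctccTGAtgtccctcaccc
Oaz2: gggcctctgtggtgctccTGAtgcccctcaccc
In the GENCODE M21 transcripts 68 codons precede this stop in Oaz1 and 32 in Oaz2, 159 and 157 codons follow in the shifted frame, and 31 of the 33 bases shown are the same.

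Oaz2 (chr9:65668001-65690300) had 166, 117, 132 and 149 TPM in control 1 to 4, 144, 137 and 148 TPM in lisinopril 1 to 3, 117, 54.2, 124 and 113 TPM in melanoma 1 to 4, and 83.9, 97.9, 133 and 133 TPM in melanoma plus lisinopril 1 to 4. All 8 tumour-bearing libraries lay below the tumour-free mean of 142 TPM and 5 of 8 below every tumour-free library, with melanoma 2 far the lowest. The average effect was -0.45 ± 0.17, which missed the threshold (adjusted p = 0.0762). It passed in 7 of 26 alternatives: the rescalings without the mitochondrial genome (-0.58, adjusted p = 0.0397), by median ratio (-0.66, 0.0346) and by quantiles (-0.68, 0.0351), sample quality weights (-0.40, 0.00961), the replicate block (-0.48, 0.0482), and without control 2 and melanoma 2 (-0.35, 0.0375), there also under median-ratio rescaling (-0.57, 0.00165). Adjusted p reached 0.140 in the others. A processed pseudogene, Oaz2-ps, was listed at 0.35 to 2.06 TPM.

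Oaz1 (chr10:80826656-80829290) had 280, 276, 206 and 288 TPM in control 1 to 4, 235, 260 and 249 TPM in lisinopril 1 to 3, 235, 157, 247 and 222 TPM in melanoma 1 to 4, and 207, 212, 249 and 324 TPM in melanoma plus lisinopril 1 to 4. All groups overlapped, with -0.16 ± 0.13 for the average effect (adjusted p = 0.383, 95% interval -0.44 to 0.12). It passed in 1 of 26 alternatives, without control 2 and melanoma 2 under median-ratio rescaling (-0.29, adjusted p = 0.0131).

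Azin1 (chr15:38487427-38519266, minus strand) encodes antizyme inhibitor, a relative of ornithine decarboxylase without its activity that takes antizyme away from the enzyme. It had 22.6, 18.0, 12.3 and 13.8 TPM in control 1 to 4 and 10.1, 17.8 and 11.7 TPM in lisinopril 1 to 3. It had 13.99, 8.78, 13.1 and 10.8 TPM in melanoma 1 to 4 and 10.49, 46.9, 11.1 and 12.8 TPM in melanoma plus lisinopril 1 to 4. The 46.9 TPM of melanoma plus lisinopril 2, the library that also held the most Odc1, was 2.08 times the next highest value. The average effect was -0.07 ± 0.27 (adjusted p = 0.875), and -0.31 ± 0.16 without that library (adjusted p = 0.181, the lowest of a range up to 0.988).

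**Figure D3:**
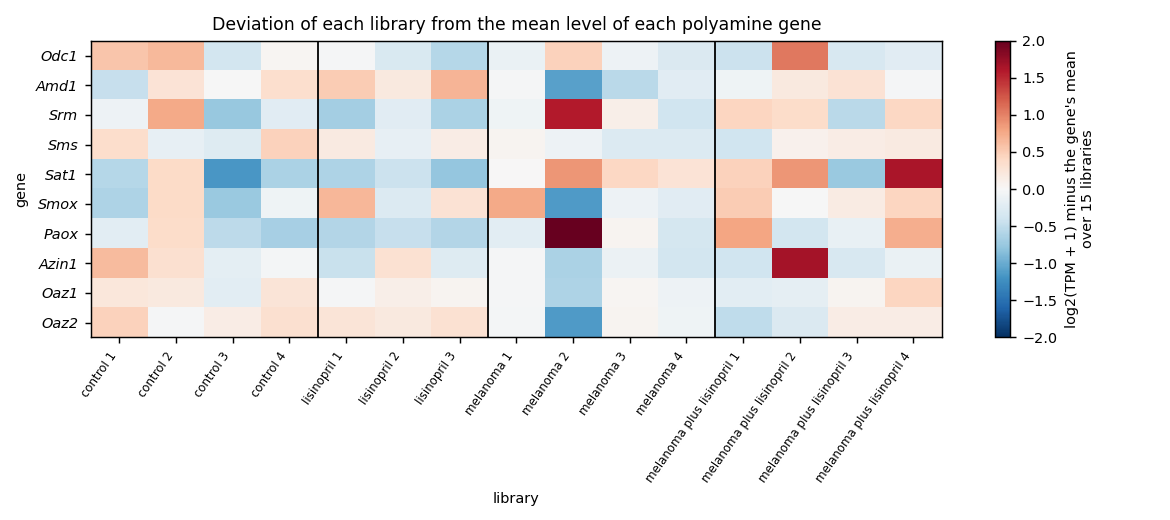
Deviation of log2(TPM + 1) in each library from the gene's mean over the 15 libraries, for the 10 polyamine genes (rows) and the libraries by group (columns); red is above and blue below the mean, with the scale ending at 2 in both directions. Melanoma 2 shows red for Srm and Paox beside blue for Amd1, Smox and Oaz2, and melanoma plus lisinopril 2 shows red for Odc1 and Azin1.

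Melanoma 2 was the highest or lowest of the 15 libraries for 7 of the 10 genes, and no other library was extreme for more than 2. Its pattern was low Amd1, Smox, Azin1, Oaz1 and Oaz2 beside high Srm and Paox. Melanoma plus lisinopril 2 was extreme for Odc1 and Azin1 only. Control 2 was extreme for none of the 10, although it held the most Odc1, Sat1, Srm and Paox of the tumour-free libraries.

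Ratios between genes do not depend on the scaling of a library and are given as descriptions, with no test. Odc1 to the sum of Oaz1 and Oaz2 lay between 0.0682 and 0.164 in 13 libraries and reached 0.268 in melanoma 2 and 0.276 in melanoma plus lisinopril 2. In melanoma 2 the antizymes were at their lowest, while in melanoma plus lisinopril 2 Odc1 was at its highest. Azin1 to the same sum was 0.151 in melanoma plus lisinopril 2 and at most 0.0506 elsewhere. Smox to Paox was 0.284 in melanoma 2, the one library with more Paox than Smox, and between 2.50 and 8.65 in the others. Amd1 to Odc1 averaged 1.42 ± 0.578 in the 4 control libraries (SD) and 2.65 ± 0.866 in the 3 lisinopril libraries. In tumour-bearing muscle it averaged 1.20 ± 0.522 over 4 libraries without the drug and 1.69 ± 0.630 over 4 with it. Each of the 3 lisinopril libraries, at 2.14 to 3.65, lay above the highest control value of 1.95. With tumour the ranges overlapped, at 0.497 to 1.61 without the drug and 0.816 to 2.30 with it. Whether the drug changed this ratio was not tested.

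**Figure D4:**
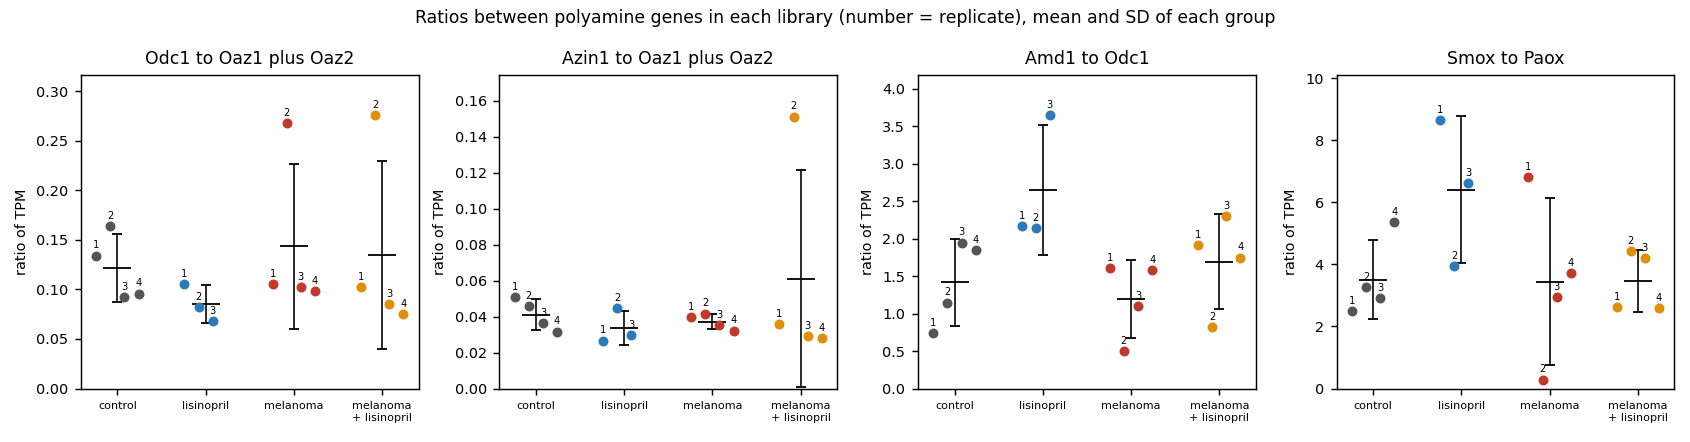
Ratios of TPM between polyamine genes in each library by group, on linear axes that start at 0; points are libraries labelled with their replicate number, bars are group means and whiskers SD. Melanoma 2 and melanoma plus lisinopril 2 stand above the other libraries in the first panel, and melanoma 2 below them in the last.

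Melanoma against control asks for the tumour effect without the drug. None of the 10 genes was called by limma, against 0.646% of all genes called. At an unadjusted p below 0.05 there were 3 of the 10 and 2209 of all 11923 genes. These 3 were Sat1 (0.89 ± 0.41, adjusted p = 0.261), Amd1 (-0.50 ± 0.23, adjusted p = 0.256) and Oaz2 (-0.52 ± 0.24, adjusted p = 0.256). Without melanoma 2 the differences were 0.73 ± 0.44, -0.30 ± 0.20 and -0.25 ± 0.17. The median over the 10 genes was -0.24, against 0.10 for all genes.

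Melanoma plus lisinopril against lisinopril asks the same with the drug. None of the 10 was called, against 1.48% of all genes, and 1 of the 10 had an unadjusted p below 0.05, as had 2781 of all 11923 genes. Sat1 gave 1.16 ± 0.44 (adjusted p = 0.153), Amd1 -0.37 ± 0.24 (adjusted p = 0.353) and Oaz2 -0.38 ± 0.25 (adjusted p = 0.359). Without melanoma plus lisinopril 3, 1 of the 10 was called, Sat1 (1.59 ± 0.36, adjusted p = 0.0333, against a range up to 0.388 over all alternatives). The median over the 10 genes was 0.18, against 0.23 for all genes.

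The test of the difference between both tumour effects, the interaction, called none of the 10 genes and 0% of all genes, with 0 of the 10 and 151 of all genes at an unadjusted p below 0.05. For Sat1 the difference was 0.27 ± 0.60 and for Amd1 0.14 ± 0.33. The largest in size among the 10 genes was that of Azin1, 0.79 ± 0.55, and it was 0.31 ± 0.33 without melanoma plus lisinopril 2.

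What the drug changed was asked once in tumour-free and once in tumour-bearing muscle. Each called none of the 10 genes and 0% of all genes. At an unadjusted p below 0.05 there were 0 of the 10 and 461 of all genes without tumour, and 1 of the 10, Amd1, and 189 of all genes with tumour. Amd1 was 0.43 ± 0.24 higher on the log2 scale without tumour (adjusted p = 0.714) and 0.56 ± 0.23 higher with it (adjusted p = 1.000, 95% interval 0.08 to 1.04). For Sat1 the intervals were wide, with -0.11 ± 0.44 without tumour and 0.16 ± 0.41 with it. These comparisons share libraries with the tumour comparisons. Lisinopril against control has the same control libraries as melanoma against control. The melanoma libraries, low in Amd1 (45.4 ± 13.7 TPM, SD), are the reference of the drug effect with tumour. They are also the tumour side of melanoma against control, so their low Amd1 enters both differences.

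Other genes of polyamine use and supply were read from lists. In the average tumour effect 14.5% of all genes were called higher and 3.45% lower. Of 10 transport genes 6 were kept, and 1 rose in the average tumour effect, Slc3a2, with a median of 0.09 over the 6 against 0.17 for all genes. Slc3a2 encodes the heavy chain of amino acid exchangers that has also been linked to polyamine and arginine transport. It had 16.5, 27.5, 10.1 and 13.9 TPM in control 1 to 4, 11.1, 14.7 and 11.8 TPM in lisinopril 1 to 3, 33.8, 51.2, 27.6 and 24.1 TPM in melanoma 1 to 4, and 37.6, 27.4, 18.8 and 32.2 TPM in melanoma plus lisinopril 1 to 4. All 8 tumour-bearing libraries were above the tumour-free mean and 5 of 8 above every tumour-free library. Slc3a2 rose 2.08-fold (log2 fold change 1.06 ± 0.21, adjusted p = 0.00704) and kept the call in all 26 alternatives (adjusted p 0.000232 to 0.0250). The lysosomal and endosomal polyamine exporters Atp13a2 (0.26 ± 0.17, adjusted p = 0.271) and Atp13a3 (0.24 ± 0.22, adjusted p = 0.431) did not pass.

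Of 11 genes of arginine and ornithine supply 9 were kept (median 0.06), and 1 rose, against 14.5% of all genes called higher. That gene was Slc7a2, a cationic amino acid transporter that brings arginine and ornithine into cells. It had 9.95, 31.6, 9.20 and 25.5 TPM in control 1 to 4, 15.01, 11.8 and 15.8 TPM in lisinopril 1 to 3, 35.4, 55.6, 27.5 and 28.9 TPM in melanoma 1 to 4, and 63.4, 21.4, 36.5 and 75.8 TPM in melanoma plus lisinopril 1 to 4. All 8 tumour-bearing libraries were above the tumour-free mean, though control 2 and control 4 overlapped with the lower ones. Slc7a2 rose 2.49-fold (1.31 ± 0.31, adjusted p = 0.0142) and kept the call in all 26 alternatives (adjusted p 0.00312 to 0.0399).

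Of 9 genes of the methionine cycle and the salvage of methylthioadenosine, the by-product of spermidine and spermine synthesis, 7 were kept. Of these 1 fell, against 3.45% of all genes called lower. That gene was Apip, a dehydratase of the salvage route (-0.31 ± 0.10, adjusted p = 0.0494), from 37.5 ± 3.06 TPM (SD, n = 7) to 30.1 ± 3.96 TPM (n = 8). It was below the tumour-free mean in 8 of 8 libraries, and it kept the call in 12 of 26 alternatives, among them 3 of the 15 fits that left out 1 library (adjusted p 0.000987 to 0.111 over all). None of the 3 kept genes of hypusination, the use of spermidine to modify the translation factor eIF5A, was called, although Dhps, which starts it, came close (0.46 ± 0.16, adjusted p = 0.0628, named after its value was seen). Eif5a itself gave 0.03 ± 0.13 (adjusted p = 0.875), a direction that turned in 8 of 26 alternatives. None of the 3 kept genes among 7 further enzymes and antizymes was called.

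Odc1 and Srm are classical targets of the MYC transcription factor. Of 11 genes of the MYC and MAX network 8 were kept, with a median of 0.47 against 0.17 for all genes. Of these 2 rose, against 14.5% of all genes called higher, and none fell. The 2 that rose were Max, the partner of MYC (0.64 ± 0.17, adjusted p = 0.0256), and Mxd4, a repressor that competes for MAX (0.56 ± 0.17, adjusted p = 0.0385). For both genes 8 of 8 libraries with tumour lay over the mean of those without. Max kept the call in 20 of 26 alternatives (adjusted p up to 0.0572) and Mxd4 in 15 (up to 0.0891). Myc itself gave 1.03 ± 0.44 (adjusted p = 0.101) and passed in 5 of 26, among them without control 2 (1.32 ± 0.37, adjusted p = 0.0175), which held the most Myc of all libraries, 28.9 TPM. Cdkn1a, which encodes the cell cycle inhibitor p21, rose 2.74-fold (1.45 ± 0.37, adjusted p = 0.0206). It lost the call in 1 of its 26 alternatives, without lisinopril 1 (adjusted p = 0.0590, the highest of a range from 0.00515).

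**Figure D5:**
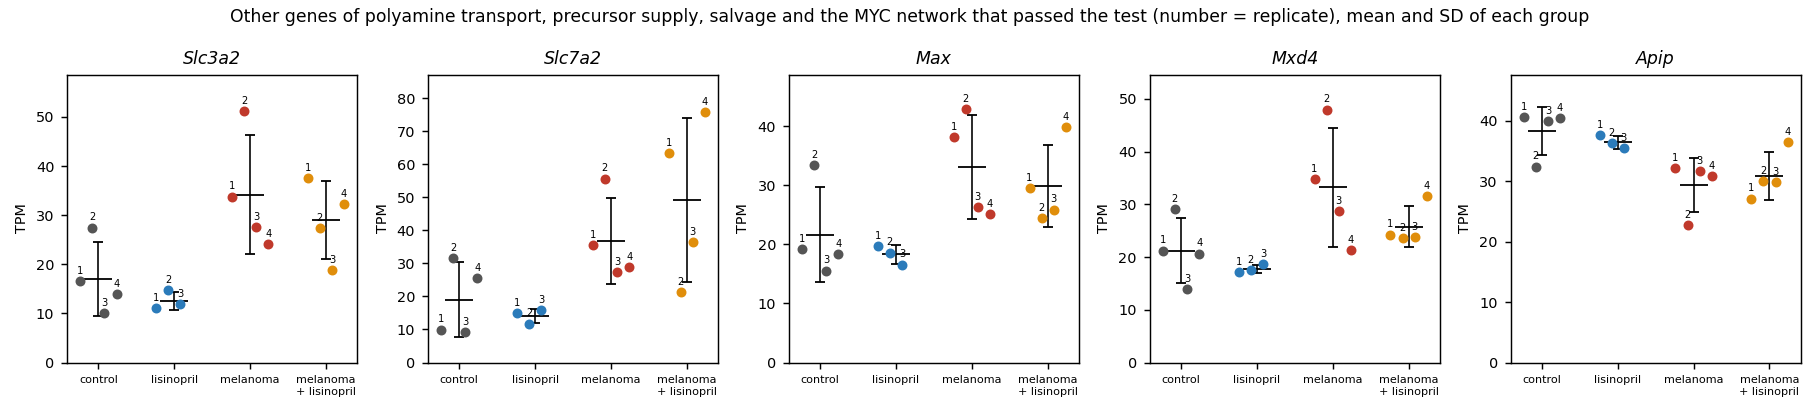
TPM in each library by group for Slc3a2, Slc7a2, Max, Mxd4 and Apip, the genes of transport, precursor supply, MYC network and salvage that passed the test in the average tumour effect; points are libraries labelled with their replicate number, bars are group means and whiskers SD. The first 4 sit higher in tumour-bearing muscle and Apip lower, with melanoma 2 highest for Slc3a2, Max and Mxd4 and lowest for Apip.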

How the data were processed

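RNA sequencing of 15 tibialis anterior samples gave 1 deposited table. Per the labels' protocols, RNA was extracted with Trizol and libraries were made with the TruSeq stranded mRNA kit. The authors deposited TPM for 47643 symbols; the build was mm10, per the submitters' processing notes. Their aligner, counter and annotation are not named in the labels or the file. The 10 genes and the lists were chosen with earlier results of these data known.

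Genes with at least 1 TPM in at least 3 libraries (11923) were fitted as log2(TPM + 1) in R 4.3.3 by limma 3.58.1, using 1 mean per group, 11 residual degrees of freedom and a variance trend in eBayes; tests were two-sided with Benjamini-Hochberg adjustment over all genes within a contrast and a threshold of 0.05. The pseudocount understates changes of low genes. The fit was tested on simulated data, and the outcome is not reported here. Named genes were the 10, list members past the threshold (at most 4 a list), a fixed panel of 7 (1 of them not reported here), and the 2 genes most like each called gene. Intervals are 95%. Positions and transcripts are from GENCODE M21 (GRCm38, the same build), which held 94.7% of the symbols, and start windows from RefSeq. Python 3.11.15 (numpy 2.4.6, pandas 2.3.3) wrote the tables, and matplotlib 3.10.9 drew the figures. Alternatives changed the pseudocount, filter, scaling, weights, replicate block or libraries used.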

Additional observations from a re-analysis of the deposited data

Results flagged for a closer look

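Within the groups of 4 libraries, 10 of 66 combinations of gene and group (22 named genes, 3 groups) held 1 library far from the others by Dixon's 95% criterion on the gap to the next library. The criterion flags about 1 in 20 among independent, normally distributed values. These genes were read in the same libraries, and some were named for their results. The 10 of 66 can therefore not be set against that rate.

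Melanoma 2 was set apart for Paox (33.9 TPM, others 5.09 to 7.04), Srm (32.7 TPM, others 7.57 to 11.2), Oaz2 (54.2 TPM, others 113 to 124) and Apip (22.7 TPM, others 30.9 to 32.1). Melanoma plus lisinopril 2 was set apart for Odc1 (85.6 TPM, others 29.9 to 34.4) and Azin1 (46.9 TPM, others 10.49 to 12.8). Melanoma plus lisinopril 3 was low for Srm (6.80 TPM, others 13.5 to 14.2), and melanoma plus lisinopril 4 was high for Mxd4 (31.6 TPM, others 23.5 to 24.2). Control 3 was low for Oaz1 (206 TPM, others 276 to 288), and control 2 was low for Apip (32.4 TPM, others 40.0 to 40.6).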

How the results depend on the processing

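In the average tumour effect 1 of the 10 genes was called. The count was 0 with no filter, 3 in each of the 3 rescalings (no mitochondrial genome, median ratios, quantiles), 5 when libraries were weighted by quality, 2 with the replicate block, 3 without control 2 and melanoma 2, and 5 without those libraries under median-ratio rescaling. In the same fits the count over all genes moved from 2141 to 1337 with no filter, 2154, 2368 and 2350 in the rescalings, 4660 with the weights, 2172 with the block, and 3669 and 3641 without those libraries. Leaving out 1 library gave between 0 and 1 of the 10. Without drug the count of 0 became 2 with sample quality weights, and with drug it became 1 without control 2 and melanoma 2 under median-ratio rescaling, and between 0 and 1 on leaving out 1 library. Of 1912 gene results recomputed, 109 changed sign, none of them called before or after. The share of higher calls among all genes also moved with scaling, from 80.8% to 59.7%, 46.8% and 50.0% without the mitochondrial genome, by median ratio and by quantiles. On leaving out 1 library the 2141 genes called in all became 743 (without lisinopril 1) to 3953 (without control 2). Without drug the 77 genes called became 7 in a fit of the groups compared alone, the fewest, and 1710 with those weights, the most; with drug the 177 became 5 without lisinopril 1 and 2303 with the weights. The labels give same-numbered libraries no link beyond the number. Deviations from group means correlated above 0.1 in 9 of 21 such pairs, with a range from -0.15 to 0.36. Of 15 libraries 4 matched their own number best. These values do not settle whether the number marks a pairing. The replicate block added a call of Oaz2. Except for that, it changed no call of the 10 genes. Unknown depth limits what can be said of low genes. The causes of these changes were not tested.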
